A study of Mus musculus with 6 samples.

Results

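The Krüppel-like factors measured here were the 10 genes Klf2, Klf3, Klf4, Klf5, Klf6, Klf7, Klf9, Klf10, Klf13 and Klf15, taken by gene name from a table of 54146 genes. They were followed in D2A1 cells, a mouse mammary tumor cell line, grown in 3D Matrigel culture in DMEM with serum. The cells received recombinant SLURP1 (rSLURP1, 50 nM) or recombinant GST as the control protein (rGST, 50 nM), with 3 libraries for each treatment and no genetic change in either group. The paper's methods place the harvest several days into the culture, so the values do not describe the first hours after the first addition. Its sphere assay added fresh recombinant protein daily, and the time from the last addition to harvest is not stated. All 6 libraries came from the same cell line, and the labels do not say whether they came from separate cultures, so p-values measure the spread between these libraries, which may be technical. SLURP1 is a secreted protein of the Ly6 and uPAR family. The study places KLF4 upstream of Slurp1 in dormant tumor cells, so the comparison asks how the KLF transcripts stood once the SLURP1 protein itself was supplied.

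Krüppel-like factors are transcription factors that bind GC-rich and CACCC elements of DNA through zinc fingers at their C-terminal end, and they share these elements with the SP factors. KLF2, KLF4, KLF5, KLF6 and KLF7 are known mostly as activators, KLF3 recruits the corepressor CtBP, and KLF9, KLF10 and KLF13 recruit the corepressor SIN3A. KLF2 and KLF4 are associated with growth arrest in many cells, KLF5 with epithelial proliferation, and KLF9, KLF13 and KLF15 with responses to glucocorticoids.

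RefSeq promoter sequences (GRCm38.p6) were held for 8 of the 10 genes, all but Klf5 and Klf10. The 250 bases before the start annotated by RefSeq are shown for Klf2 and Klf6, the genes with the largest increases. They are also shown for Klf4, the factor the study sets upstream of Slurp1. Klf2 is at chr8:72318812-72319061 on the plus strand, Klf6 at chr13:5861239-5861488 on the plus strand and Klf4 at chr4:55532476-55532725 on the minus strand. The gene coordinates given below are from GENCODE, and the Klf2 and Klf6 windows run past the GENCODE starts (72319033 and 5861482). Each window is written 5′ to 3′, and capitals mark GGGCGG or its complement CCGCCC (the GC box bound by SP and KLF factors). In Klf2 they also mark a match to the letters CTA, any 4 bases and TAG. This is a loose form of the MEF2 site, in which the 4 middle bases are A or T.
Klf2: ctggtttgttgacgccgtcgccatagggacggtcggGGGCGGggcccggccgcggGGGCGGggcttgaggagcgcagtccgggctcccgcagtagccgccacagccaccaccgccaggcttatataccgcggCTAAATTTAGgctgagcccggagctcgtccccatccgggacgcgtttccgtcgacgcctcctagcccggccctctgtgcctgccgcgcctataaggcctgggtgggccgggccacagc
Klf6: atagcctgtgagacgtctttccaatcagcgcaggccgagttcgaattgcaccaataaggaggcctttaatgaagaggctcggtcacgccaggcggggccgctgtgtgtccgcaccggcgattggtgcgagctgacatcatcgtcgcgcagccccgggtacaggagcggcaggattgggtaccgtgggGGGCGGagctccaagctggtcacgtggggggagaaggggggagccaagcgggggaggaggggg
Klf4: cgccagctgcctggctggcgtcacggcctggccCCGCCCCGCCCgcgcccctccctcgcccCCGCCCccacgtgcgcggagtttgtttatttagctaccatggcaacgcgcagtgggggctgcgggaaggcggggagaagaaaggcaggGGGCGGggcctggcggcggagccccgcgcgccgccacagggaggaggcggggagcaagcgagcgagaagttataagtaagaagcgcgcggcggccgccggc
Klf2 held 2 GC boxes, Klf6 held 1 and Klf4 held 4, of which a pair shared 1 base. On either strand, GGGCGG was found in 7 of the 8 windows of the family and in 32.7% of the 32851 RefSeq windows of this length, and Klf9 was the member without it. The windows of the family had a GC content of 59.2% to 78.4%. The 32851 windows were not matched for GC content, so these shares do not show an excess particular to the family. The MEF2 match of Klf2, CTAAATTTAG, lay at positions -118 to -109 from the RefSeq start. The loose form, with any 4 middle bases, was found on either strand in 3.20% of all windows and in none of the other 7 of the family. The share of windows with A or T at those bases was not counted. CCAAT was found on either strand 4 times in Klf6, in neither Klf2 nor Klf4, and in 33.8% of all windows. The KLF4 motif that the study searched for, CCCCACCC, was found in the windows of Klf3 and Klf7 and in 9.05% of all windows. These matches describe letters only, and no binding was measured.

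Expression was given as TPM, a unit in which each gene's reads are corrected for transcript length and every library is scaled to the same total, so read depth is unknown. The limma fit used log2(TPM + 1) of the 12301 genes that reached a TPM of 1 in 3 or more libraries, and genes were called at a Benjamini-Hochberg adjusted p of 0.05 or less. A fold change on this scale understates the change of genes with low TPM. The median log2 fold change of all tested genes was -0.33, so a gene with no change in TPM stood above most others. Scaling each library by the median ratio of its genes moved that median to -0.0012 and the share of calls that were lower from 87.1% to 49.2%. For some genes, changes are therefore also given relative to the median of all genes or with median-ratio scaling. Where no such setting is named, a log2 fold change is as deposited and includes the shift of all genes. For 1 gene in 3 libraries of each treatment, the exact permutation test allows a two-sided p no smaller than 0.1. In RNA from whole cultures, fewer cells that express a gene and less of its RNA in each cell cannot be told apart. Of 9 mammary epithelial markers, Epcam, Krt5 and Krt14 were listed at 0 in all 6 libraries, Cdh1 stood at 0.07 TPM or less and Krt18 at 191.1 to 199.4 TPM. Krt7 and Krt19 were also too low to be tested. Krt8 was lower as deposited (means of 1.56 and 0.70 TPM, adjusted p = 0.00968 in limma) and not called with median-ratio scaling (adjusted p = 0.0554 in limma). Krt18 and Elf3 were not called as deposited (log2 fold changes of 0.015 and 0.011), and Krt18 was higher with median-ratio scaling (0.37). The 6 leukocyte markers summed to 0.10 TPM or less in every library and the 4 endothelial markers to 0.31 TPM or less. The 5 mesenchymal markers summed to 1304 to 1468 TPM with rGST and 669 to 726 TPM with rSLURP1, with Cdh2 at 0.05 TPM or less. Vim made up most of these sums, with means of 1259 TPM with rGST and 664.5 TPM with rSLURP1. Col1a1 and Pdgfrb fell further, with log2 fold changes of -2.88 and -2.40 as deposited and -2.67 and -2.06 with median-ratio scaling. All 4 tested mesenchymal markers were lower as deposited, as were 58.5% of all tested genes, and 3 were with median-ratio scaling (25.2% of all), where Zeb1 was not called (-0.23, adjusted p = 0.0529 in limma). The part of this shift in the KLF results was not tested.

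The KLF family changed in both directions with rSLURP1. Klf2 and Klf6 rose more than 2-fold, Klf10 fell more than 2-fold, and Klf3, Klf4, Klf7, Klf9 and Klf13 were lower by smaller amounts, although Klf3 and Klf7 were not called with median-ratio scaling. Klf5 did not pass the test, and Klf15 was listed at 0 in every library and was not tested. Of the 9 tested members, 8 were called, 2 of them higher and 6 lower, where 67.2% of all tested genes were called, 8.66% higher and 58.5% lower. With median-ratio scaling, 3 members were higher and 4 lower, against backgrounds of 26% and 25.2%. Quantile normalization also gave 3 higher and 4 lower members (backgrounds of 25.3% and 23.6%). A loess adjustment for the length and GC content of each transcript gave 3 higher and 3 lower (27% and 21.9%). As deposited, a change of at least 2-fold was found for 2 higher members and 1 lower member, against 1.15% and 7.06% of all tested genes. With median-ratio scaling, quantile normalization or the length and GC adjustment, 2 members changed at least 2-fold. The matching shares of all tested genes are not given for those settings. The median log2 fold change of the 9 members was -0.43, close to that of all tested genes. The rSLURP1 libraries lay wholly above the rGST libraries for 2 members and wholly below for 6, against 9.75% and 61.7% of all tested genes.

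**Figure D1:**
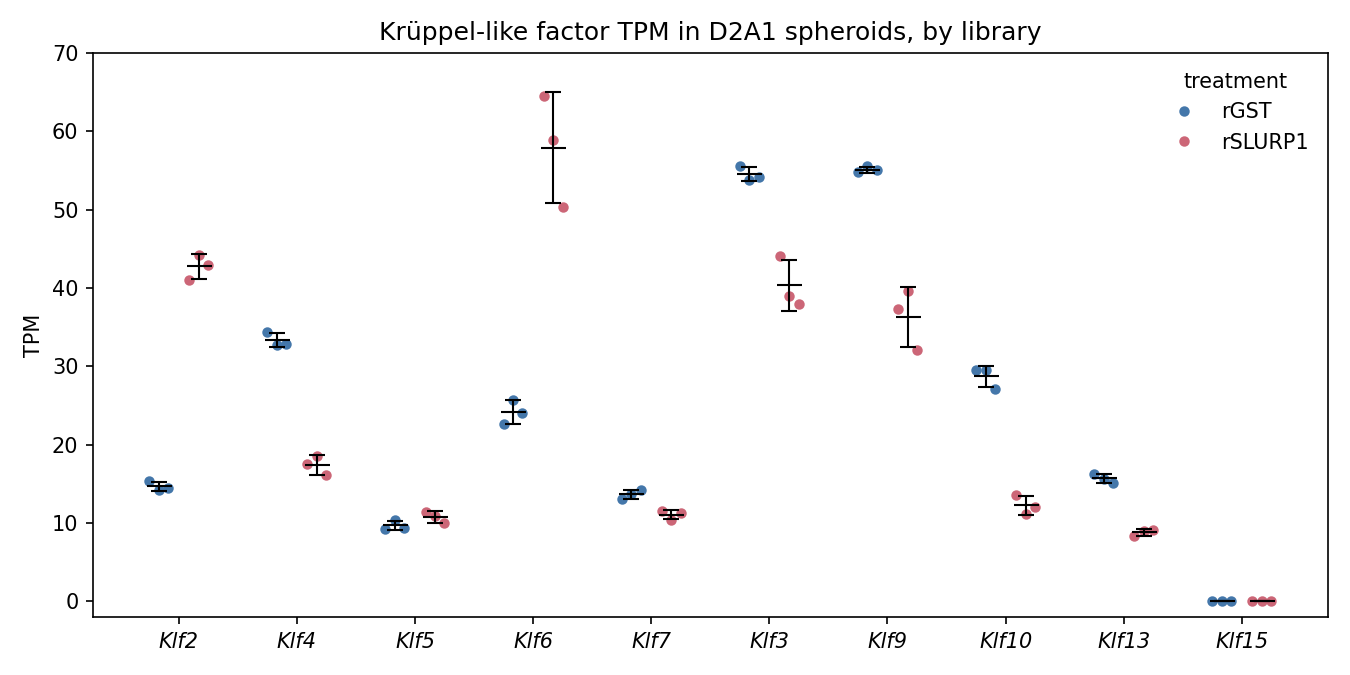
TPM of the 10 Krüppel-like factors in each library (points, rGST blue and rSLURP1 red), with the mean and SD of 3 libraries (bars). The rSLURP1 libraries of Klf2 (41.08 to 44.25) and Klf6 (50.37 to 64.54) lie above all their rGST libraries, those of Klf4 (16.1 to 18.59) and Klf10 (11.11 to 13.56) lie below, those of Klf5 overlap, and Klf15 is at 0.

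Klf2 (ENSMUSG00000055148.7, GRCm38 chromosome 8, 72319033 to 72321656, plus strand), known for quiescence of T cells and endothelium, had the largest increase of the family. It stood at 15.32, 14.16 and 14.48 TPM in the rGST libraries. In the rSLURP1 libraries it stood at 41.08, 44.25 and 42.97 TPM. The lowest rSLURP1 library was far above the highest rGST library, and neither group spread by more than a few TPM. Its log2 fold change was 1.48 (95% interval 1.35 to 1.62, adjusted p = 1.59e-06 in limma). It lay 1.81 above the median of all genes, which placed it at the 99.4th percentile of all tested genes. The increase was larger after median-ratio scaling, with a log2 fold change of 1.82.

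Klf6 (ENSMUSG00000000078.7, chromosome 13, 5861482 to 5870394, plus strand) is known as an early response gene to injury and as a tumor suppressor. It stood at 22.63, 25.75 and 24.03 TPM with rGST. With rSLURP1 it stood at 64.54, 58.87 and 50.37 TPM, the widest spread of any member, and every rSLURP1 library was above every rGST library. The mean went from 24.1 ± 1.56 to 57.9 ± 7.13 TPM (SD over the 3 libraries). On the log2 scale Klf6 rose by 1.22 ± 0.0949 (standard error), at an adjusted p of 3.05e-05 in limma. When each library in turn was left out, the value stayed between 1.14 and 1.32.

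Klf4 (ENSMUSG00000003032.8, chromosome 4, 55527143 to 55532466, minus strand), the factor that the study sets upstream of Slurp1, moved the other way from Klf2. Its TPM was 34.36, 32.77 and 32.85 in the rGST libraries and 17.57, 18.59 and 16.1 in the rSLURP1 libraries. All 3 rSLURP1 libraries were below all 3 rGST libraries. The log2 fold change was -0.90 (95% interval -1.06 to -0.74, adjusted p = 2.51e-05 in limma), which was -0.57 against the median gene. Under all alternatives it stayed lower, between -0.95 and -0.51, with a highest adjusted p of 0.00272 in limma. Slurp1 and Cd200, which the study places under KLF4, were listed at 0 in all 6 libraries, so no change in either could be measured. In D2A1 cells sorted from lungs of mice without myeloid Tgfbr2, the paper reports KLF4 and KLF2 as increased and the other family members as not. That comparison was between tumor cells grown in mice and differs from the one made here. In cultured D2A1 cells, the paper reports higher KLF4, SLURP1 and CD200 with IFN-γ, with serum starvation before treatment for SLURP1. It also reports lower SLURP1 with KLF4 knockdown and higher SLURP1 with KLF4 overexpression. Those conditions also differ from the spheroids here, which were grown with serum and are labeled with rSLURP1 or rGST only.

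Klf5 (ENSMUSG00000005148.8, chromosome 14, 99298691 to 99315036, plus strand), an activator of epithelial growth genes, was the least expressed member above 0 with rGST. It had 9.28, 10.38 and 9.39 TPM with rGST and 11.42, 10.88 and 10 TPM with rSLURP1, and the libraries overlapped. Its log2 fold change was 0.14 (95% interval -0.06 to 0.34, adjusted p = 0.180 in limma). Relative to the median of all genes this was 0.46, and with median-ratio scaling Klf5 was called higher (adjusted p = 0.00297 in limma). Klf7 (ENSMUSG00000025959.13, chromosome 1, 64029447 to 64122282, minus strand), known for roles in neurons and fat cells, had 13.11, 13.64 and 14.19 TPM with rGST and 11.54, 10.37 and 11.26 TPM with rSLURP1. Its log2 fold change was -0.28 (adjusted p = 0.0112 in limma) as deposited, against 0.05 after median-ratio scaling (adjusted p = 0.647 in limma). Klf7 thus kept nearly the same place among all genes, 0.04 above their median.

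Klf3 (ENSMUSG00000029178.14, chromosome 5, 64803388 to 64832901, plus strand), the CtBP-binding repressor of the family, was among its most abundant transcripts. It had 55.55, 53.82 and 54.18 TPM with rGST and 44.02, 38.95 and 38.01 TPM with rSLURP1, with no overlap. The log2 fold change was -0.43 (adjusted p = 6.81e-04 in limma), of which -0.10 remained relative to the median of all genes. It was not called with median-ratio scaling (-0.08, 95% interval -0.24 to 0.08, adjusted p = 0.349 in limma).

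The SIN3A-binding members were lower with rSLURP1 by unequal amounts. Klf10 (ENSMUSG00000037465.10, chromosome 15, 38291463 to 38300706, minus strand), also called TIEG1 and known as an early target of TGF-β, had the largest decrease of the family. It stood at 29.52, 29.51 and 27.15 TPM with rGST and at 13.56, 11.11 and 12.07 TPM with rSLURP1. The lowest rGST library was well above the highest rSLURP1 library. Its log2 fold change was -1.17 (95% interval -1.36 to -0.97, adjusted p = 2.02e-05 in limma). After median-ratio scaling it was -0.83, short of a 2-fold change and still called (adjusted p = 2.64e-04 in limma).

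Klf13 (ENSMUSG00000052040.10, chromosome 7, 63886351 to 63938915, minus strand), a regulator of Ccl5 in T cells, had 16.27, 15.66 and 15.09 TPM with rGST and 8.27, 8.95 and 9.13 TPM with rSLURP1. Its log2 fold change was -0.77 (adjusted p = 7.96e-05 in limma), and the groups did not overlap. Klf9 (ENSMUSG00000033863.1, chromosome 19, 23141226 to 23168134, plus strand), a factor induced by glucocorticoids and thyroid hormone, was the most abundant member with rGST, with 54.75, 55.53 and 55.06 TPM. With rSLURP1 it had 37.29, 39.56 and 32.11 TPM, all below the rGST libraries. The log2 fold change of Klf9 was -0.59 (adjusted p = 3.42e-04 in limma), and after median-ratio scaling it was -0.25 (adjusted p = 0.0199 in limma). After the length and GC adjustment, Klf9 was no longer called (-0.17, adjusted p = 0.0783 in limma), and Klf13 stood at -0.25 (adjusted p = 0.0175 in limma). Klf15 (ENSMUSG00000030087.11, chromosome 6, 90462576 to 90475238, plus strand), a glucocorticoid-induced regulator of amino acid metabolism, was listed at 0 in all 6 libraries.

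**Figure D2:**
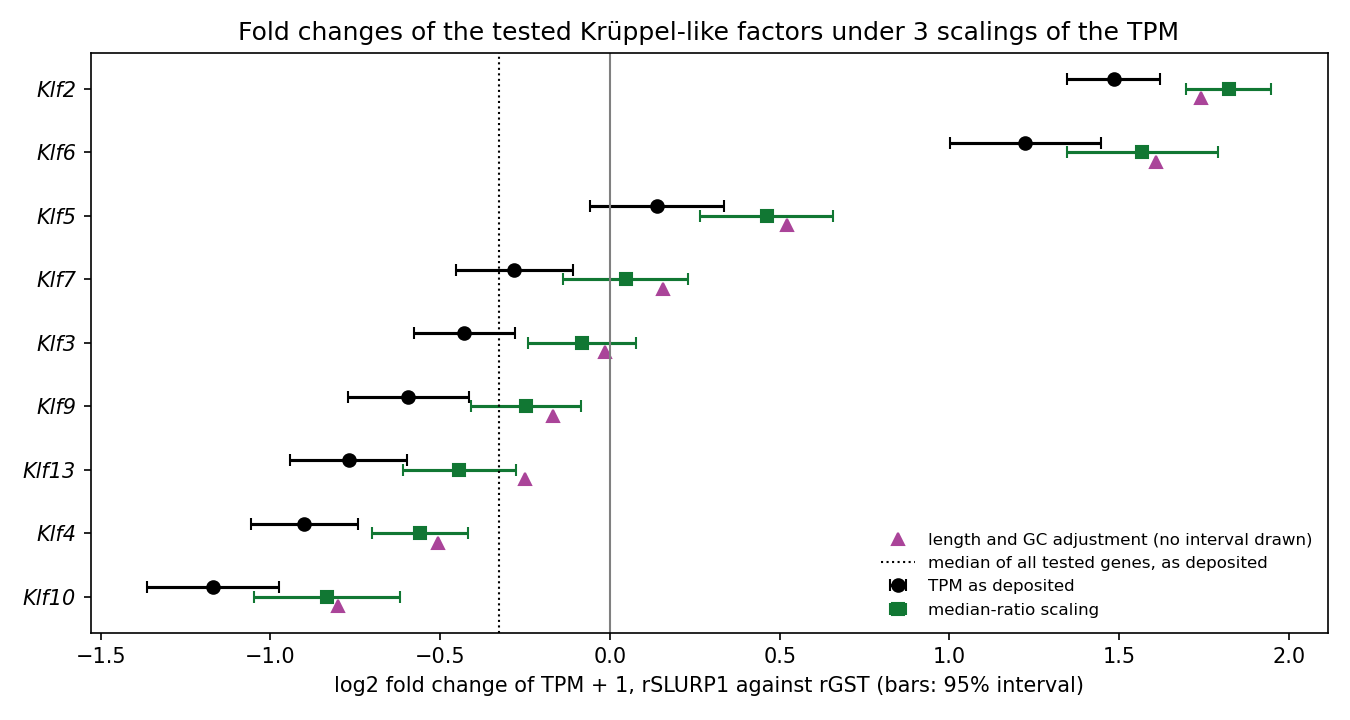
Log2 fold change of TPM + 1, rSLURP1 against rGST, for the 9 tested members with TPM as deposited (circles) and median-ratio scaling (squares), each with its 95% interval, and after the length and GC adjustment (triangles). The points of Klf2, Klf5 and Klf6 lie right of 0 and those of Klf3, Klf4, Klf9, Klf10 and Klf13 left of it in all 3. Klf7 moves from -0.28 to 0.05 and 0.16. The intervals of Klf5 as deposited and of Klf3 with median-ratio scaling include 0. The dotted line is the median of all tested genes as deposited, -0.33.

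The order of abundance within the family was rearranged. With rGST the order by mean TPM was Klf9 and Klf3, whose libraries overlapped, then Klf4, Klf10 and Klf6, each apart from its neighbors. Below them came Klf13, Klf2 and Klf7, of which Klf13 overlapped Klf2 and Klf2 overlapped Klf7, and then Klf5. With rSLURP1 the first was Klf6, apart from the next, followed by Klf2, Klf3 and Klf9, of which Klf2 overlapped Klf3 and Klf3 overlapped Klf9. Klf4 came after them, apart from both neighbors, and then Klf10, Klf7 and Klf5, with overlap between neighbors, and Klf13. Klf2 went from rank 7 to rank 2 and Klf6 from rank 5 to rank 1, and Klf4 went from rank 3 to rank 5.

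The summed TPM of the family was 246.4 to 251.2 with rGST and 222.0 to 249.3 with rSLURP1, and the groups overlapped (exact permutation test, two-sided p = 0.2). Shares and ratios within the family do not change when all genes of a library are scaled by the same factor. They can change with quantile normalization or the length and GC adjustment, and are given as deposited. Klf6 made up 9.68% ± 0.617 of the sum in the rGST libraries and 24.3% ± 1.60 in the rSLURP1 libraries (SD, n = 3 each). The share of Klf2 went from 5.87% ± 0.236 to 18.1% ± 1.46, and that of Klf4 from 13.4% ± 0.329 to 7.33% ± 0.332 (SD, n = 3 each). The ratio of Klf2 to Klf4 TPM, chosen after their values were seen, was 0.446, 0.432 and 0.441 in the rGST libraries and 2.34, 2.38 and 2.67 in the rSLURP1 libraries. Klf4 was thus the more abundant of the pair in every rGST library and Klf2 in every rSLURP1 library (exact permutation test, two-sided p = 0.1, the smallest possible). Since the libraries of both genes were already separated in opposite directions, this p was fixed in advance and adds nothing to the results of each gene.

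**Figure D3:**
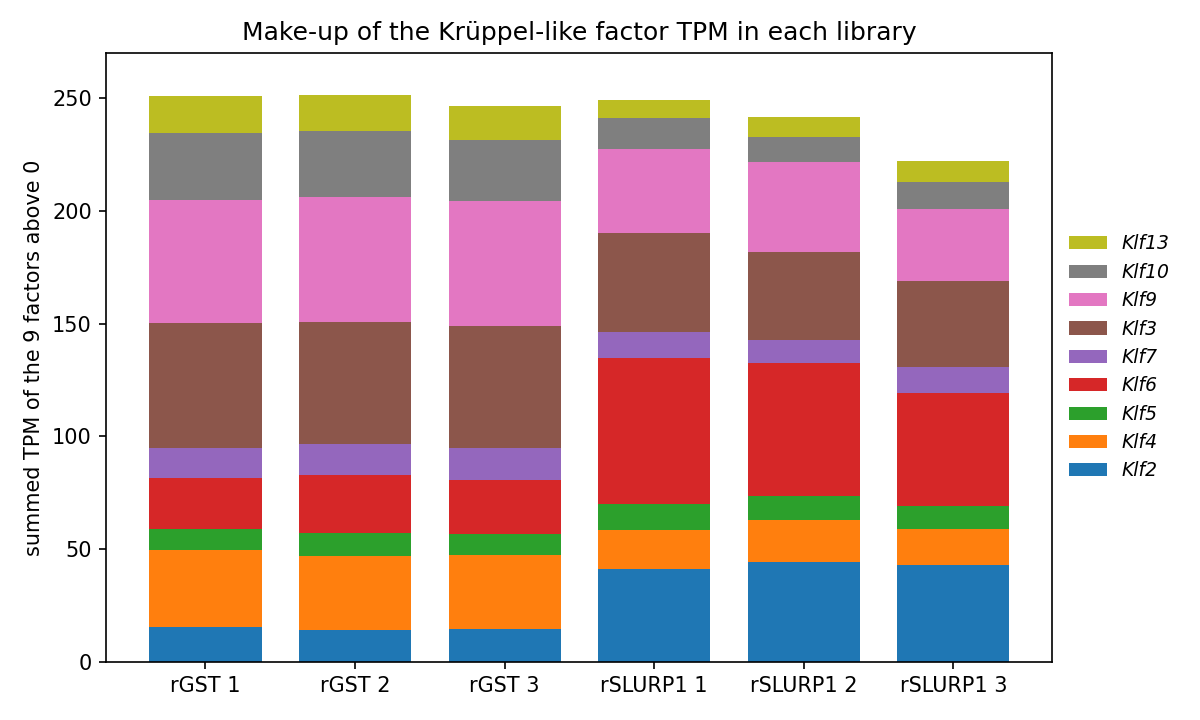
Summed TPM of the 9 Krüppel-like factors above 0 in each library, stacked by gene. The total lies between 222.0 and 251.2 in all 6 libraries, while the Klf6 and Klf2 segments are taller and the Klf4 and Klf10 segments shorter in the 3 rSLURP1 libraries.

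Of 16 other KLF and SP genes, 6 had enough TPM to be tested. Klf11 (TIEG2) and Klf16, which also recruit SIN3A, were higher with rSLURP1, the other way from Klf10. Klf11 had 8.77, 9.53 and 8.96 TPM with rGST and 13.18, 13.32 and 12.2 TPM with rSLURP1 (log2 fold change 0.46, adjusted p = 0.00112 in limma). Klf16 had 10.91, 12.83 and 12.4 TPM with rGST and 16.52, 16.01 and 16.26 TPM with rSLURP1 (log2 fold change 0.41, adjusted p = 0.00247 in limma). For both, the rSLURP1 libraries were above all rGST libraries. The ratio of Klf10 to Klf11 TPM, also chosen after its values were seen, was 3.16 ± 0.178 in the rGST libraries and 0.951 ± 0.103 in the rSLURP1 libraries (SD, n = 3). Sp1, a broadly expressed activator at GC boxes, was lower (log2 fold change -0.75, adjusted p = 4.87e-05 in limma). Sp3 was lower as deposited (-0.20, adjusted p = 0.00512 in limma) and higher with median-ratio scaling (0.15, adjusted p = 0.0271 in limma). Sp2 and Sp4 had log2 fold changes of -0.20 and -0.30 and did not pass the test. In all, 2 of these 6 genes were higher and 2 lower (8.66% and 58.5% of all tested genes), against 3 and 1 with median-ratio scaling (26% and 25.2%).

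The corepressors and coactivators that bind KLF factors were lower as a list, close to the shift of all genes. In limma, 10 of the 11 tested genes were lower, where 58.5% of all tested genes were, and Ctbp2 did not pass the test (-0.11, adjusted p = 0.279). Their log2 fold changes had a median of -0.32, and with median-ratio scaling 3 were lower and 1 higher (25.2% and 26% of all tested genes). Among upstream regulators, limma called 9 of 15 tested genes lower (median -0.36), a share near the 58.5% of all tested genes, and did not call the other 6. With median-ratio scaling 2 were lower and 2 higher, against 25.2% and 26%. Ifngr1, a chain of the receptor for IFN-γ, which the study sets upstream of KLF4, was lower (-0.70, adjusted p = 1.01e-04 in limma), by less with median-ratio scaling (-0.36, adjusted p = 0.00316 in limma). Ifngr2, the other chain, had a log2 fold change of -0.29 and did not pass the test (adjusted p = 0.0775 in limma).

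Among 21 genes known as KLF targets in other cells, 14 were tested, of which 3 were higher and 8 lower (median log2 fold change -0.46), where 8.66% and 58.5% of all tested genes were. With median-ratio scaling, 5 were higher and 4 lower, against 26% and 25.2%. Cdkn1a, the CDK inhibitor p21 and a target activated by KLF2, KLF4 and KLF6, had 2.84, 5.1 and 5.64 TPM with rGST and 11.31, 12.93 and 9.72 TPM with rSLURP1. All rSLURP1 libraries were above all rGST libraries (log2 fold change 1.19, adjusted p = 0.00174 in limma). Odc1, the polyamine synthesis enzyme that KLF4 is known to repress, rose from 155.1 ± 11.1 to 343.9 ± 24.1 TPM (SD, n = 3 each; log2 fold change 1.14, adjusted p = 9.52e-06 in limma). Ccnd1, cyclin D1, which KLF4 represses and KLF5 activates, fell from 60.1 ± 5.57 to 22.7 ± 0.650 TPM (SD, n = 3 each; -1.36, adjusted p = 6.11e-06 in limma). Fgfbp1, a carrier of FGF known as a KLF5 target, fell from 48.1 ± 10.5 to 2.41 ± 0.292 TPM (SD, n = 3 each; -3.83, adjusted p = 2.01e-06 in limma). Without rGST replicate 3, 7 of the target genes were called in place of 11. Eng, Ccl5, Prodh and Nanog were then lost, 2 of them because they no longer passed the filter.

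Of 9 glucocorticoid response genes, 8 were tested, with 1 higher, 4 lower and a median log2 fold change of -0.39, where 8.66% of all tested genes were higher and 58.5% lower. After median-ratio scaling 3 were higher and 3 lower, against 26% and 25.2%. Tsc22d3 (GILZ), induced by glucocorticoids in many cells, had a log2 fold change of 0.21 (adjusted p = 0.0433 in limma) as deposited and 0.55 (adjusted p = 3.75e-04 in limma) with median-ratio scaling. As deposited, its call was lost when any library other than rSLURP1 replicate 1 was left out, at adjusted p-values of 0.0597 to 0.103 in limma. Errfi1, an inhibitor of EGF receptor signaling, had the largest change of the list and fell from 227.2 ± 9.21 to 34.7 ± 0.891 TPM (SD, n = 3 each; -2.68, adjusted p = 7.14e-08 in limma).

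**Figure D4:**
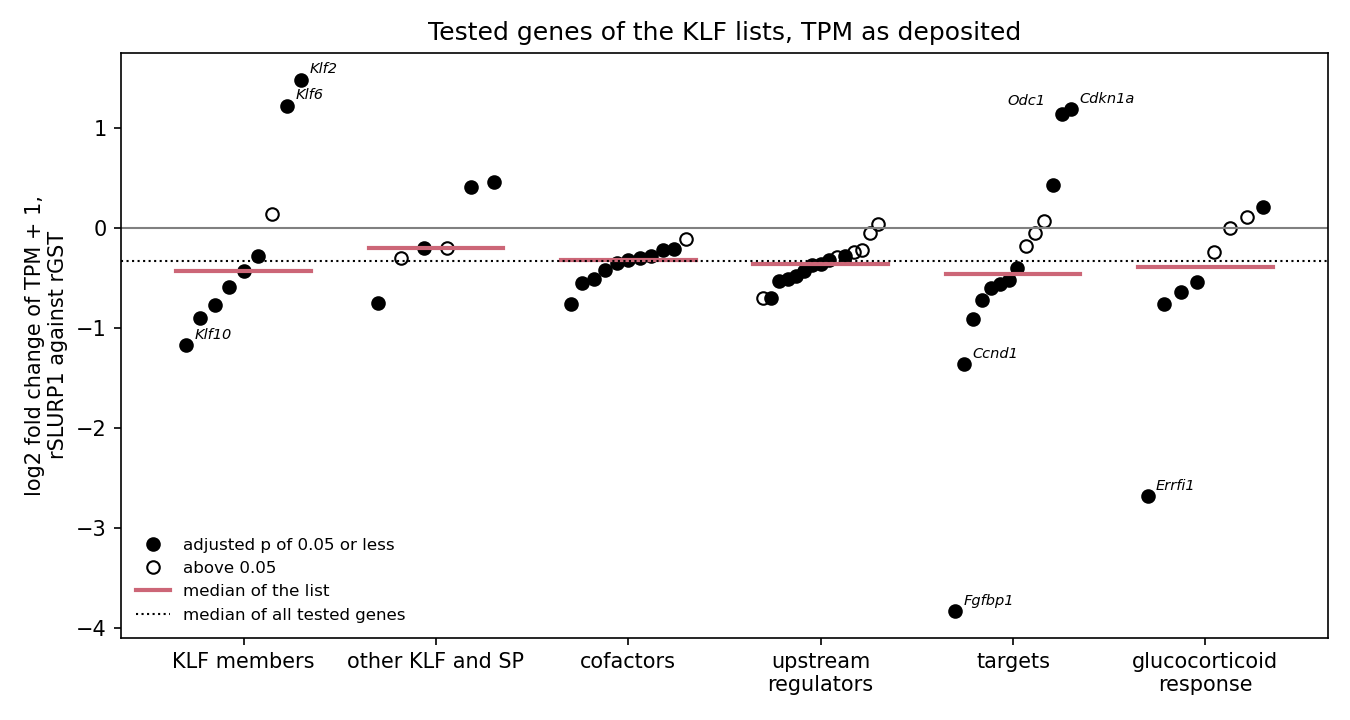
Log2 fold change of TPM + 1, rSLURP1 against rGST, for the tested genes of the KLF family and 5 related lists (filled points passed an adjusted p of 0.05 in limma, open points did not), with each list's median (red) and that of all tested genes (dotted, -0.33). Genes with a log2 change of at least 1 in either direction are named, and the list medians lie between -0.46 and -0.20.

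Over the 6 libraries, the genes nearest to Klf4 by the Euclidean distance of their mean-centered log2(TPM + 1) values were Trim25, Ikbke and Ociad2, at distances of 0.073, 0.075 and 0.078, against a median of 0.81 over all tested genes. The genes nearest to Klf2 were Id1, Smox and Atf5, at 0.12, 0.16 and 0.16, against a median of 2.25. Id1, an inhibitor of helix-loop-helix factors and a known BMP target, had a mean of 28.7 TPM with rGST and 84.5 TPM with rSLURP1. The named neighbors were picked as the nearest of all tested genes, so they lie below the median by selection. With 2 treatments, the distances mostly reflect the size of the difference between the treatments.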

How the data were processed

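RNA from D2A1 spheroids treated with rSLURP1 or rGST was analysed in 6 libraries, grouped by their labels. Per the submitters' processing notes, the authors used Cutadapt (1.18) for trimming, STAR (2.5.2b) for alignment to mm10 and RSEM (1.3.3) for quantification, and deposited TPM with 1 column per library. Depth and counting error are unknown because TPM keeps no read numbers. The paper's methods give other versions of Cutadapt and RSEM, and Smart-seq2 where the labels name a TruSeq kit, and which were used is not settled here.

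From the deposited TPM, log2(TPM + 1) was tested with limma (3.58.1, R 4.3.3, lmFit and eBayes with trend) over 12301 genes, without a replicate block, with thresholds of an adjusted p of 0.05 and a fold change of 2. Median-ratio factors were 1.13 for each rGST library and 0.871 to 0.908 for the rSLURP1 libraries. Alternatives were a pseudocount of 0.1, no filter, median-ratio scaling, quantile normalization, eBayes without trend, the replicate block and each library left out. A loess correction (span 0.3) for length and GC content of the longest transcript was added after seeing the data. Coordinates came from GENCODE M21 (GRCm38, the same build as mm10), matched without ID versions. The code was tested on simulated data.

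The members, the gene lists (other KLF and SP genes, cofactors, upstream regulators, targets, glucocorticoid response genes and cell type markers) and the promoter motifs were chosen with earlier results of these data known. Genes named were all members, the tested KLF and SP relatives, up to 6 genes of each other list changed at least 2-fold, and Slurp1, Cd200, Ifngr1 and Ifngr2. A gene of the upstream list is not reported here and was left out of that list's counts. Tsc22d3 and Ctbp2, the single higher and the single uncalled gene of their lists, and the genes lost without 1 library were named after their values were seen. The same holds for Col1a1 and Pdgfrb, the mesenchymal markers with the largest changes. Python 3.11.15 with pandas (2.3.3) handled tables, and plots used matplotlib (3.10.9).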

Additional observations from a re-analysis of the deposited data

How the results depend on the processing

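The number of KLF members called stayed at 8 in each fit that left out 1 library. Median-ratio scaling and quantile normalization called 7, the length and GC adjustment 6, and the adjustment plus the replicate block 5. The 6 lower members became 3 under the adjustment and 2 once the block was added, where Klf13 was lost (adjusted p = 0.0509 in limma). Klf2, Klf4, Klf6 and Klf10 kept their direction and call in every alternative. Klf7 reversed to 0.047 under median-ratio scaling, to 0.12 under quantile normalization and to 0.16 under the adjustment, block or not.

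Under those settings in the same order, Sp2 reversed to 0.10, 0.20 and 0.20, Sp3 to 0.15, 0.13 and 0.19, and Ifngr2 to 0.046, 0.11 and 0.12. Sp4 reversed to 0.097 under quantile normalization and to 0.091 under the adjustment, block or not. These settings raise the median of all genes from -0.33 to between -0.0012 and 0.030. The cofactor list had 4, 3 and 4 called genes in place of 10, and 4 once the block was added. The upstream list had 4, 3 and 4 in place of 9, and 4 once the block was added. Called KLF targets ranged from 7 to 11 when 1 library was left out.

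Same-numbered libraries did not deviate together (correlations of -0.056, -0.034 and -0.061 across genes). With the replicate block alone, 8 members and 12 upstream genes were called, Ifngr2 among the latter (adjusted p = 0.0456 in limma), and Tsc22d3 was not called (adjusted p = 0.0629 in limma). The Tsc22d3 call was also lost with no filter and with eBayes without trend. Since TPM keeps no depth, what it limits could not be measured.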
